A study of Mus musculus with 12 samples.

Results

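The lymphoid priming genes are 10 genes whose transcripts mark the first steps from a multipotent blood progenitor towards B and T cells: Flt3, Il7r, Ikzf1, Satb1, Ebf1, Notch1, Rag1, Rag2, Dntt and Ighm. They were taken by gene symbol from a table of 55450 genes, and all 10 passed the filter on low counts that 14346 genes passed. Lymphoid priming is the low-level transcription of lymphoid genes in progenitors that can still make myeloid cells. Signals through the FLT3 and IL-7 receptors, transcription factors such as IKAROS and SATB1, and later EBF1 in B cells and NOTCH1 in T cells, precede assembly of antigen receptor genes by the RAG recombinase. E proteins, the basic helix-loop-helix factors that drive many of these genes, are held back by ID proteins such as ID1, and TET2 oxidises methylated cytosine in DNA.

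RNA was measured in Lin- ckit+ donor cells, which lack the surface markers of mature lineages and carry the stem cell factor receptor, a mixture of stem cells and mainly myeloid, erythroid and lymphoid progenitors. They were sorted from bone marrow of mice that had received competitive transplants, in which donor and competitor marrow share 1 host. The 4 genotype labels were WT, Tet2 KO (here Tet2KO), Id1 KO (Id1KO) and Tet2 KO + Id1KO (dKO), with 3 libraries each. All groups, WT included, were donor cells from transplanted hosts, and the labels give no allele, driver line, age or time after transplant. Titles give the 3 libraries of a genotype 1 sample number, so they may be repeats of 1 cell sample, and p-values measure only the spread between these libraries. Libraries held 15706407 to 19959183 counts each, and levels are given in CPM, counts scaled to a common library total by the TMM method. Group values are mean ± SD (n = 3 libraries). Whether libraries of different groups overlap is given as a description, and the share of all genes without overlap was not computed. Kit stood at 315 to 365 CPM and Cd34 at 282 to 366 CPM over the 4 genotype means, while the T cell gene Cd3e had 0 to 1 count and the B cell gene Ms4a1 0 to 2 counts per library.

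The transcripts of Tet2 and Id1 did not fall under the labels that name their loss, so genotype names are labels throughout. Tet2 (chromosome 3, 133463679 to 133545139) was at 99.3 ± 2.2 CPM for WT, 130 ± 2.5 for Tet2KO, 92.0 ± 1.5 for Id1KO and 118 ± 3.1 for dKO. Id1 (chromosome 2, 152736251 to 152737410) stood at 1.47 ± 0.27, 3.86 ± 0.42, 3.96 ± 0.34 and 3.93 ± 0.5 CPM in the same order. The labels do not say which exons were deleted, and a count over the whole gene does not check a deletion of part of it.

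Promoter sequence is shown for 4 of the genes, 3 for how their levels differed between genotypes and 1 for its motifs. Flt3 and Notch1 rose with the Tet2 label on either Id1 background, Dntt fell with the Id1 label on either Tet2 background, and Rag1 held all 3 motifs searched in the window nearest its annotated start. The runs are the 250 bases before the RefSeq start on GRCm38.p6, 5′ to 3′ on the strand of the gene, and capitals mark CG, the dinucleotide in which mammalian DNA is methylated, in the first 3 and motif matches in the last. They lie at chr5:147400490-147400739 (minus strand) for Flt3, chr2:26503823-26504072 (minus) for Notch1, chr19:41029025-41029274 (plus) for Dntt and chr2:101649533-101649782 (minus) for Rag1.
Flt3: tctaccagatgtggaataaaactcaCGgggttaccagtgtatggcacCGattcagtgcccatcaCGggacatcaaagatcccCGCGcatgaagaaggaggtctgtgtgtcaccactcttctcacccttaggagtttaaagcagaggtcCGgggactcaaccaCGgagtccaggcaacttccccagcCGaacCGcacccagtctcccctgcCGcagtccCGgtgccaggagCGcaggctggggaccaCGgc
Notch1: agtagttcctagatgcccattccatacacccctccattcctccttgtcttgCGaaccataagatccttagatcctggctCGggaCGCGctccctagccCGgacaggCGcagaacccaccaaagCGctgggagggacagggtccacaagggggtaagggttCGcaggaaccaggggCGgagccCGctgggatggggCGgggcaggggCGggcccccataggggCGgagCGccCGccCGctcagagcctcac
Dntt: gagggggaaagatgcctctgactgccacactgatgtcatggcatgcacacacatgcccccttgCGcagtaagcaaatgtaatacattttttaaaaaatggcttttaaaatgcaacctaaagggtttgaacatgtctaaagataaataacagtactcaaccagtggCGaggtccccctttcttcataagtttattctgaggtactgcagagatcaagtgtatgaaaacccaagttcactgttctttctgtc
Rag1: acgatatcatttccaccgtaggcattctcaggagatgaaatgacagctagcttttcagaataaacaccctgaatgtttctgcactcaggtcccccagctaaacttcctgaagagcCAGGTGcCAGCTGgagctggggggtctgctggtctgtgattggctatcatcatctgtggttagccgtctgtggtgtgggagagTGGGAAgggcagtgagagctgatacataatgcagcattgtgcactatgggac
The Notch1 run lies inside the annotated gene, since the RefSeq start nearest the GENCODE start is 12841 bases from it, while those of Flt3 and Dntt coincide with it. The Flt3 run held 13 CG and the Notch1 run 16, against 2 in the Dntt run. Satb1, which also rose with the Tet2 label on either Id1 background, had 5 in its nearest 250 bases. Ikzf1, which fell in Tet2KO against WT, had 44. Whether CG content goes with the response to either label was not tested. Over windows of 300 bases, which add the 50 bases after the start, Flt3 had 18 CG, Notch1 23, Ikzf1 52, Ebf1 9, Satb1 8, Rag1 3, Rag2 3, Dntt 2 and Il7r 1. The lower quartile, median and upper quartile of 32851 mouse promoters were 3, 7 and 20. The motifs searched on both strands were the E-boxes CAGCTG and CAGGTG, letters that E proteins bind, and TGGGAA, a core that IKAROS binds. Rag1 held each of them once, Satb1 held CAGGTG in a match that was not wholly before its start, and the other 7 genes with a window held none in the window nearest their annotated start. Satb1 held all 3 in a window of another RefSeq start, 6702 bases from its annotated start. Among all promoters 16.3%, 20.2% and 25.6% held the 3 motifs, beside 1, 2 and 1 of these 9 genes, which is a description and not a test. RefSeq windows matched 9 of the 10 genes, not Ighm.

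Genes are compared with each other per kilobase of exon, since longer transcripts collect more reads. The length is that of all annotated exons merged, 19.03 kilobases for Satb1 and 14.23 for Notch1. It can exceed the length of the transcripts made, which would lower a gene in this order. Ighm led at 62.9 CPM per kilobase averaged over the 12 libraries, followed by Ikzf1 at 47.1. Flt3 at 12.3 and Dntt at 11.4 had overlapping libraries, as had Dntt and Notch1 at 8.06, and Satb1 followed at 3.04 without overlap. Far lower were Il7r at 0.409, Rag2 at 0.311, Rag1 at 0.302 and Ebf1 at 0.205, whose neighbours in this order overlapped. Ighm and Ikzf1 also overlapped, because the Id1KO libraries of Ighm reached down to 49.2 and the Ikzf1 libraries reached 49.5. In bulk RNA of this mixture, more cells of a type cannot be told apart from more RNA per cell.

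**Figure D1:**
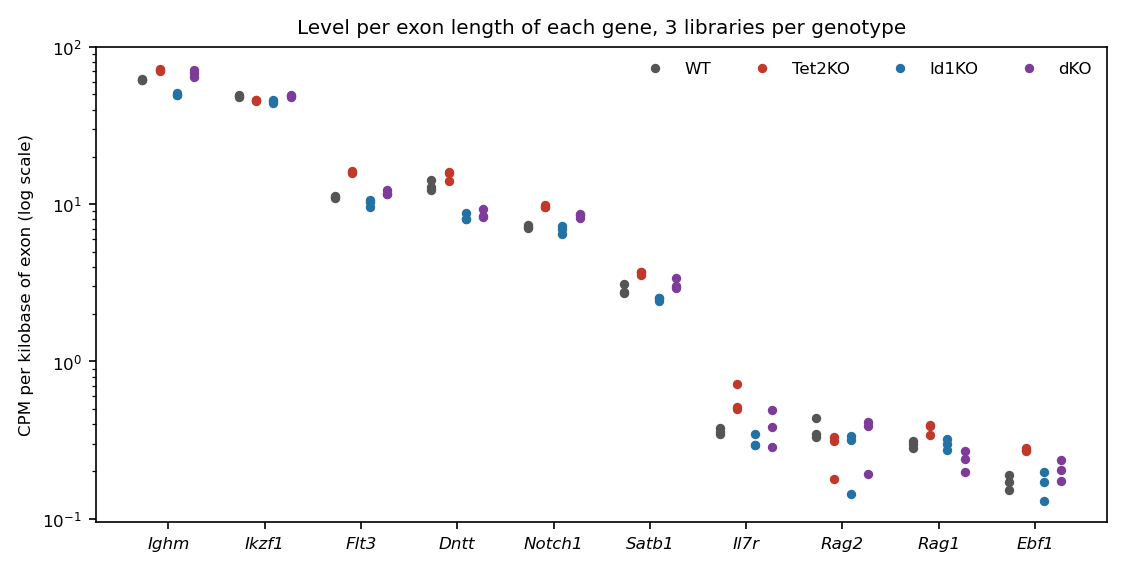
Level of each gene in CPM per kilobase of exon (log axis) in the 12 libraries, coloured by genotype label. Ighm and Ikzf1 lie between 44.0 and 72.9, and Il7r, Rag2, Rag1 and Ebf1 lie below 1 in every library.

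FLT3 is the receptor tyrosine kinase that marks multipotent progenitors with lymphoid potential, and its gene (ENSMUSG00000042817.15, chromosome 5, 147330741 to 147400489) was highest in Tet2KO. Flt3 was measured at 68.2, 68.8 and 69.8 CPM in the WT libraries, at 99.7, 98.4 and 100 CPM for Tet2KO, at 63.6, 59.5 and 65.4 for Id1KO and at 72.1, 72.2 and 75.7 for dKO. No genotype overlapped another, in the order Id1KO, WT, dKO, Tet2KO. Flt3 rose by 44.3% in Tet2KO against WT, log2 0.53 ± 0.036 (fold change ± SE, edgeR adjusted p 8.54e-10). It rose by 16.8% in dKO against Id1KO (log2 0.22 ± 0.038, edgeR adjusted p 0.00023). The first rise was larger than the second: the interaction, the log2 change in dKO against Id1KO minus that in Tet2KO against WT, was -0.30 ± 0.052 (edgeR adjusted p 0.000502). Flt3 fell by 26.2% in dKO against Tet2KO (log2 -0.44 ± 0.036, edgeR adjusted p 2.51e-08). The smaller difference in Id1KO against WT, log2 -0.13 ± 0.037 with an edgeR adjusted p of 0.0189, was lost without WT replicate 2 (0.0505), WT replicate 3 (0.0751) or Id1KO replicate 2 (0.112), and with DESeq2 (0.0663). The dKO libraries lay above WT by a log2 of 0.09, which missed the threshold (edgeR adjusted p 0.0979).

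IL-7 receptor alpha carries the survival signal of early B and T cell progenitors, and its gene was scarce here, at 21 to 62 counts per library. Il7r (ENSMUSG00000003882.5, chromosome 15, 9505788 to 9530176) was measured at 1.76, 1.65 and 1.62 CPM in the WT libraries, at 2.39, 2.32 and 3.34 CPM for Tet2KO, at 1.37, 1.61 and 1.38 for Id1KO and at 1.33, 1.80 and 2.30 for dKO. Tet2KO lay above every other library, and its replicate 3 stood above its other 2. Il7r rose by a log2 of 0.68 ± 0.2 in Tet2KO against WT (edgeR adjusted p 0.0131), a call lost without Tet2KO replicate 3 (0.49, adjusted p 0.111) and with DESeq2 (adjusted p 0.0527). The fall in dKO against Tet2KO, log2 -0.57 ± 0.21 with an edgeR adjusted p of 0.0465, was lost when any library other than Tet2KO replicate 2 or dKO replicate 3 was left out (adjusted p 0.0508 to 0.262). Of the remaining comparisons, dKO against Id1KO gave 0.32 (edgeR adjusted p 0.365), with an interval of -0.13 to 0.77.

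IKAROS, encoded by Ikzf1, is a zinc finger factor needed for lymphoid fate, and its transcript was the steadiest of the 10. Ikzf1 (ENSMUSG00000018654.17, chromosome 11, 11685003 to 11772926) was measured at 286, 279 and 281 CPM in the WT libraries, at 261, 264 and 266 CPM for Tet2KO, at 265, 254 and 262 for Id1KO and at 278, 285 and 281 for dKO. Both single labels lay below WT and dKO without overlap, while WT and dKO overlapped. Ikzf1 fell by 6.5% in Tet2KO against WT (log2 -0.10 ± 0.026, edgeR adjusted p 0.00658) and by 7.53% in Id1KO against WT (log2 -0.11 ± 0.026, edgeR adjusted p 0.00502). It rose by a log2 of 0.11 ± 0.026 in dKO against Id1KO (edgeR adjusted p 0.00416) and of 0.10 ± 0.026 in dKO against Tet2KO (edgeR adjusted p 0.00961). Its interaction was 0.21 ± 0.037 (edgeR adjusted p 0.000634), so the change with the Tet2 label differed in sign between the 2 Id1 labels. WT and dKO differed by a log2 of 0.00, with an interval of -0.05 to 0.05.

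SATB1 organises chromatin in lymphoid progenitors and thymocytes. Satb1 (ENSMUSG00000023927.15, chromosome 17, 51736187 to 51833290) was measured at 58.9, 51.5 and 52.8 CPM in the WT libraries, at 67.3, 70.9 and 70.9 CPM for Tet2KO, at 48.4, 46.2 and 48.3 for Id1KO and at 57.0, 64.5 and 56.2 for dKO. Tet2KO was highest and Id1KO lowest without overlap, and WT and dKO overlapped. Satb1 rose by 28.1% in Tet2KO against WT (log2 0.36 ± 0.053, edgeR adjusted p 3.01e-05) and by 24.4% in dKO against Id1KO (log2 0.31 ± 0.056, edgeR adjusted p 0.000368). Its interaction was -0.04 with an interval of -0.19 to 0.11 (edgeR adjusted p 0.77). In dKO against Tet2KO it fell by 15.1% (log2 -0.24 ± 0.053, edgeR adjusted p 0.00256). The difference in Id1KO against WT, log2 -0.19 ± 0.055 with an edgeR adjusted p of 0.0216, was lost without WT replicate 1 (-0.13, adjusted p 0.15), Id1KO replicate 1 (0.0516) or Id1KO replicate 2 (0.0821). In dKO against WT the log2 difference of 0.12 (edgeR adjusted p 0.13) passed without WT replicate 1 (0.18, adjusted p 0.0239). A gene model on the same strand, Gm36931, shares 156 exonic bases with Satb1 and had 2.96 CPM, so reads there may be split between them.

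EBF1 commits progenitors to the B lineage, and its transcript was near the lower end of what was tested, at 23 to 51 counts per library. Ebf1 (ENSMUSG00000057098.14, chromosome 11, 44617317 to 45008091) was measured at 1.87, 1.5 and 1.68 CPM in the WT libraries, at 2.63, 2.68 and 2.75 CPM for Tet2KO, at 1.92, 1.67 and 1.27 for Id1KO and at 1.71, 1.98 and 2.30 for dKO. The 3 Tet2KO libraries lay above all others, which overlapped among themselves. Ebf1 rose by 59.9% in Tet2KO against WT (log2 0.68 ± 0.18, edgeR adjusted p 0.00719). No other comparison of Ebf1 passed, and dKO against Tet2KO gave a log2 of -0.42 (edgeR adjusted p 0.0941).

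NOTCH1 is the receptor whose signal directs progenitors to the T lineage, though it is also transcribed in other progenitors. Notch1 (ENSMUSG00000026923.15, chromosome 2, 26457903 to 26516663) was measured at 102, 100 and 105 CPM in the WT libraries, at 136, 137 and 140 CPM for Tet2KO, at 98.8, 104 and 92.4 for Id1KO and at 122, 116 and 124 for dKO. WT and Id1KO overlapped, dKO lay above both, and Tet2KO lay above dKO. Notch1 rose by 34.4% in Tet2KO against WT (log2 0.43 ± 0.037, edgeR adjusted p 3.7e-08) and by 22.7% in dKO against Id1KO (log2 0.29 ± 0.038, edgeR adjusted p 1.27e-05). Its interaction of -0.13 ± 0.053 missed the threshold (edgeR adjusted p 0.107) and passed only without Id1KO replicate 3 (-0.18, adjusted p 0.0201). It fell by 12.2% in dKO against Tet2KO (log2 -0.19 ± 0.037, edgeR adjusted p 0.000814) and was higher in dKO than in WT by 18% (log2 0.24 ± 0.038, edgeR adjusted p 0.000129). In Id1KO against WT its log2 difference was -0.06 (edgeR adjusted p 0.361), with an interval of -0.13 to 0.02. An opposite-strand gene, 0610009E02Rik, shares 1068 exonic bases with Notch1 at 0.329 CPM.

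**Figure D2:**
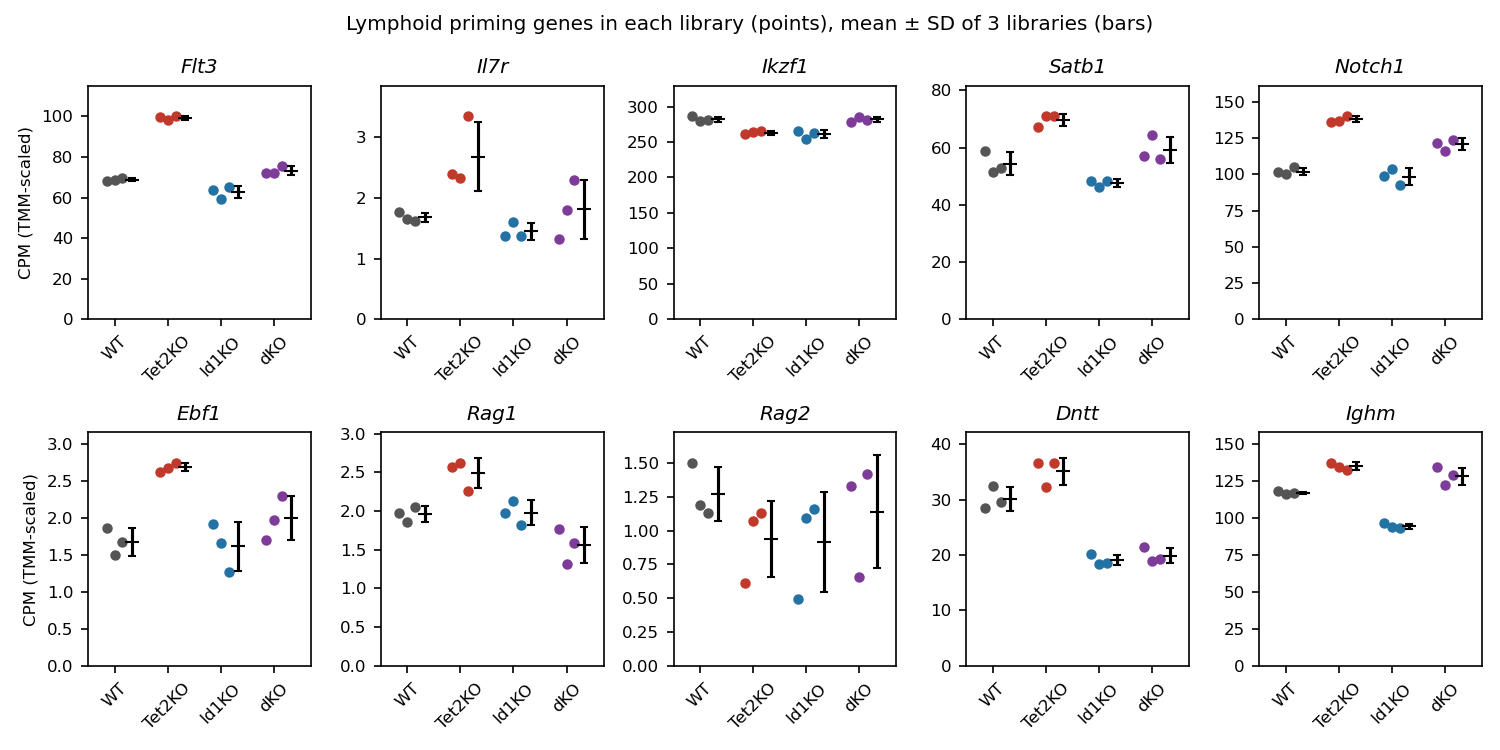
CPM of each gene in every library by genotype label, with the mean ± SD of 3 libraries beside the points, on linear axes that start at 0. Flt3, Notch1 and Satb1 are highest in Tet2KO, Dntt is lower in both groups that carry the Id1 label, and Ikzf1 spans only 254 to 286 CPM.

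RAG1 and RAG2 together form the recombinase that cuts antigen receptor genes, and their genes are convergent neighbours on chromosome 2, at 101638282 to 101649501 for Rag1 (ENSMUSG00000061311.6) and 101624718 to 101632529 for Rag2 (ENSMUSG00000032864.4). Rag1 was measured at 1.97, 1.86 and 2.05 CPM in the WT libraries, at 2.57, 2.62 and 2.26 CPM for Tet2KO, at 1.98, 2.13 and 1.82 for Id1KO and at 1.77, 1.32 and 1.59 for dKO. The dKO libraries were lowest and the Tet2KO libraries highest, without overlap. Rag1 fell by 37.0% in dKO against Tet2KO (log2 -0.67 ± 0.18, edgeR adjusted p 0.00896), a call lost without dKO replicate 2 (-0.56, adjusted p 0.0564) and with DESeq2 (adjusted p 0.0644). Its log2 difference in Tet2KO against WT was 0.34 (edgeR adjusted p 0.151). Rag2 was measured at 1.5, 1.19 and 1.13 CPM in the WT libraries, at 0.613, 1.07 and 1.13 CPM for Tet2KO, at 0.494, 1.09 and 1.16 for Id1KO and at 1.33, 0.659 and 1.42 for dKO. With 9 to 29 counts per library, Rag2 passed in no comparison, and its interval in Tet2KO against WT, -1.07 to 0.22, includes 0. Whether the 2 genes differ in response was not tested. The gene B230118H07Rik, at 20.9 CPM, shares 208 exonic bases with Rag2 on the opposite strand and 80 with Rag1 on the same strand. The strand setting of the counting is not given in the sources used here, so reads in those bases cannot be assigned.

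TdT, the polymerase encoded by Dntt, adds untemplated bases to antigen receptor joints and is one of the earliest lymphoid transcripts. Dntt (ENSMUSG00000025014.13, chromosome 19, 41029275 to 41059525) was measured at 28.4, 32.5 and 29.5 CPM in the WT libraries, at 36.5, 32.3 and 36.6 CPM for Tet2KO, at 20.2, 18.4 and 18.6 for Id1KO and at 21.5, 18.9 and 19.3 for dKO. Both groups that carry the Id1 label lay below both groups without it, with no overlap. Dntt fell by 36.8% in Id1KO against WT (log2 -0.66 ± 0.069, edgeR adjusted p 1.34e-06). It fell by 43.4% in dKO against Tet2KO (log2 -0.82 ± 0.069, edgeR adjusted p 3.57e-08), libraries that the first comparison did not use, and by 34.0% in dKO against WT, which shares libraries with both (log2 -0.60 ± 0.069, edgeR adjusted p 3.04e-06). Dntt rose by 16.5% in Tet2KO against WT (log2 0.22 ± 0.063, edgeR adjusted p 0.0105) with overlapping libraries, a call lost without Tet2KO replicate 3 (0.19, adjusted p 0.053). In dKO against Id1KO its log2 difference was 0.06 (edgeR adjusted p 0.629), with an interval of -0.08 to 0.21, and its interaction of -0.16 missed the threshold (edgeR adjusted p 0.312).

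IgM heavy chain is the product of Ighm, the constant region gene that is transcribed from the unrearranged locus before any antigen receptor is made. Ighm (ENSMUSG00000076617.9, chromosome 12, 113418558 to 113422730) was measured at 118, 116 and 117 CPM in the WT libraries, at 137, 134 and 132 CPM for Tet2KO, at 96.3, 93.9 and 92.8 for Id1KO and at 134, 122 and 129 for dKO. Id1KO was lowest, WT came next, and Tet2KO and dKO overlapped at the top. Ighm rose by 15.2% in Tet2KO against WT (log2 0.20 ± 0.032, edgeR adjusted p 5.31e-05) and by 35.9% in dKO against Id1KO (log2 0.44 ± 0.033, edgeR adjusted p 6.83e-09). The second rise was larger, with an interaction of 0.24 ± 0.046 (edgeR adjusted p 0.00154). In Id1KO against WT it fell by 19.3% (log2 -0.31 ± 0.033, edgeR adjusted p 1.84e-06). In dKO against Tet2KO the log2 difference of -0.07 missed the threshold (edgeR adjusted p 0.111), and passed without dKO replicate 1 (-0.10, adjusted p 0.0299). In dKO against WT Ighm rose by 9.69% (log2 0.13 ± 0.032, edgeR adjusted p 0.00573).

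Ighm counts came almost without counts on the other segments of the immunoglobulin loci, a comparison chosen after its values were seen. Over 3 libraries Ighm had 6686 counts for WT, 6959 for Tet2KO, 5245 for Id1KO and 6333 for dKO. The 113 heavy chain V genes together had 27, 15, 7 and 17 counts, and the 21 D and J genes had 0 in every library. Whether the counting could assign reads to D and J genes at all was not tested, so these zeros are not a measure of their transcription. The 5 kappa and lambda constant genes had 49, 22, 11 and 31 counts and the 103 light chain V genes 25, 9, 7 and 18. The 7 other heavy chain constant genes had 80, 94, 43 and 46. Reads that match several V genes may have been divided or dropped in the counting, which is not described in the sources used here.

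**Figure D3:**
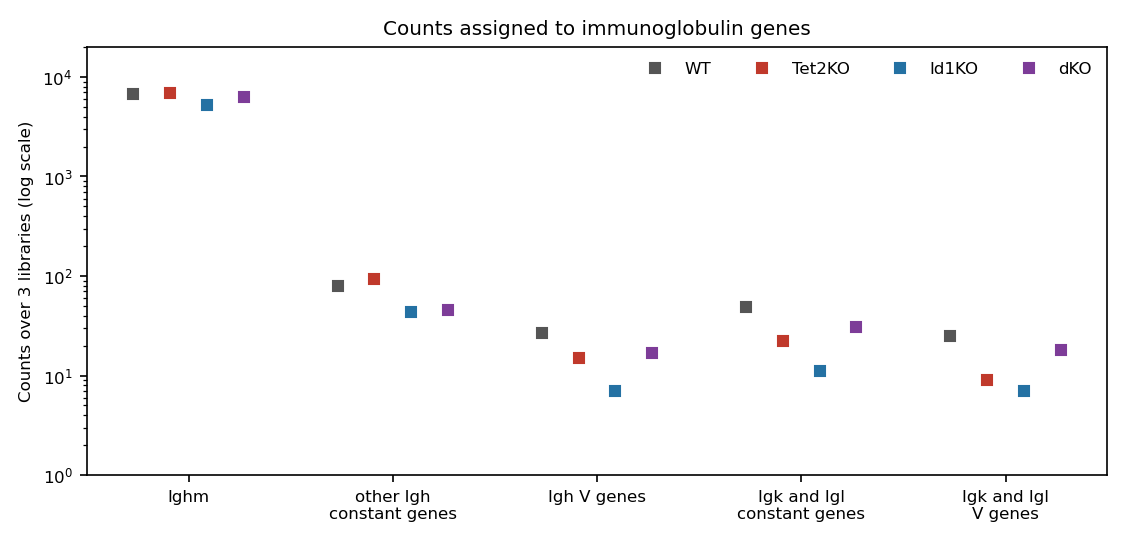
Counts over 3 libraries (log axis) for Ighm and for 4 other groups of immunoglobulin genes, by genotype label. Ighm stands at 5245 to 6959 counts and every other group at 94 or fewer, and the D and J genes at 0 are not drawn.

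Counted together for the Tet2 label, 7 of the 10 genes were higher and 1, Ikzf1, was lower in Tet2KO against WT, where 32.8% of all genes tested were called, 16.6% higher and 16.2% lower. Their median log2 change was 0.35, against 0.00 over all genes tested. In dKO against Id1KO, 5 genes were higher (Ighm, Satb1, Notch1, Flt3 and Ikzf1) and none lower, where 19.3% of all genes were called, 10.6% higher and 8.7% lower, with a median of 0.30 against 0.00. The 2 comparisons share no library, and 5 genes were called in both. Flt3, Ighm, Notch1 and Satb1 had the same direction, 50% of the genes called in the first and 80% of those called in the second, and Ikzf1 had opposite directions. The matching shares over all genes were not computed, so these percentages cannot be read as particular to the 10 genes. Ebf1, Il7r and Dntt rose in Tet2KO against WT without passing in dKO against Id1KO, but none of the 3 had an interaction that passed.

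For the Id1 label, 5 genes were lower in Id1KO against WT (Dntt, Ighm, Satb1, Flt3 and Ikzf1) and none higher, where 15% of all genes were called, 7.26% higher and 7.77% lower. In dKO against Tet2KO, 6 were lower (Dntt, Rag1, Il7r, Flt3, Satb1 and Notch1) and Ikzf1 was higher, where 26.4% of all genes were called, 13.4% lower and 13.1% higher. Their medians were -0.16 and -0.33, against -0.01 and 0.00 over all genes tested. These 2 comparisons share no library either, and Flt3, Dntt and Satb1 fell in both, 60% of the genes called in the first and 42.9% of those in the second. Here too the matching shares over all genes were not computed. The count of 5 in Id1KO against WT became 3 without Id1KO replicate 2. Comparisons against a common group, such as WT, share its libraries and are not independent. In dKO against WT, Notch1 and Ighm were higher and Dntt lower, where 19.2% of all genes were called, 10.2% higher and 8.97% lower. The interactions of Ighm and Ikzf1 passed with positive sign and that of Flt3 with negative sign, where 14.5% of all genes passed, 7.46% positive and 7.03% negative.

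**Figure D4:**
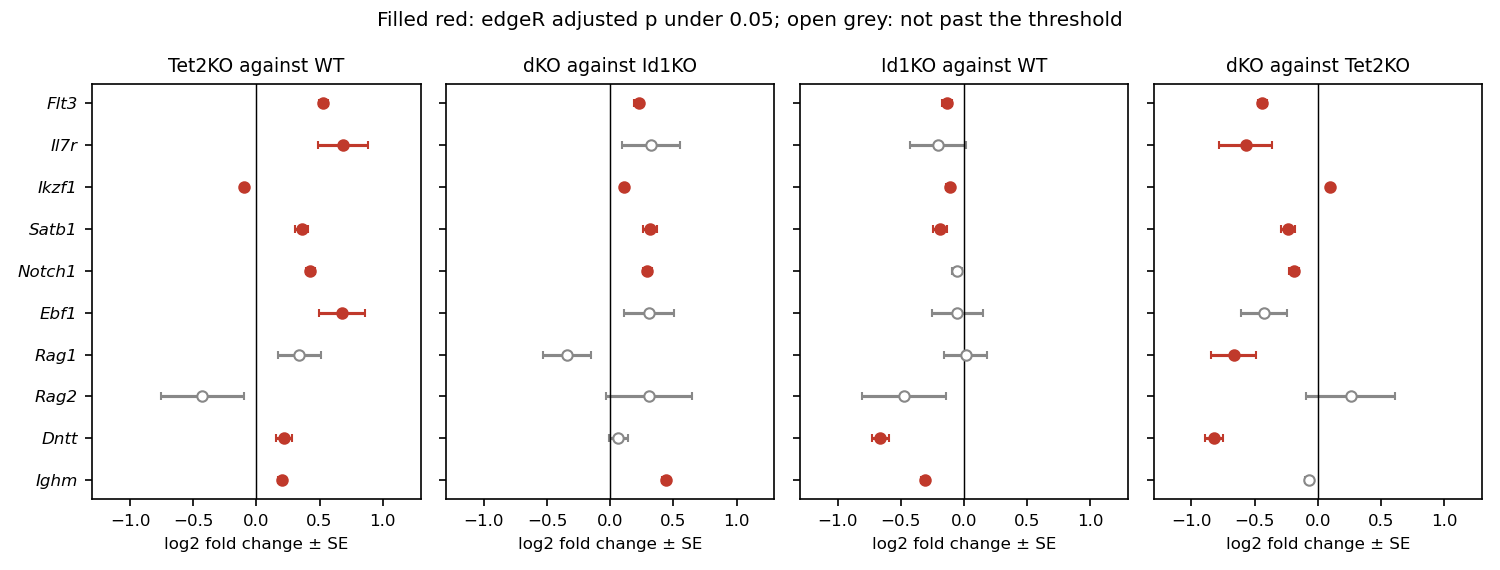
Log2 fold change ± SE of each gene in the 4 comparisons that change 1 label, filled red where the edgeR adjusted p was under 0.05 and open grey where it was not. Values lie mostly right of 0 for the Tet2 label and left of 0 for the Id1 label, with Ikzf1 crossing sides and wide errors for Il7r, Ebf1, Rag1 and Rag2.

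Because the 3 libraries of a genotype may come from 1 cell sample, counts were also summed over them. The 4 sums were fitted with additive effects of the 2 labels, which leaves 1 residual degree of freedom. That residual is the departure from additivity, so interactions such as those called for Flt3, Ighm and Ikzf1 enter the error. edgeR also draws the error of each gene from all genes, so the p-values do not rest on that residual alone. Spread between cell samples of a genotype is not measured by this fit either. With edgeR, Notch1 (log2 0.36 ± 0.059, adjusted p 0.043) and Satb1 (0.34 ± 0.059, adjusted p 0.048) passed for the Tet2 label, where 1.62% of all genes were called. Both calls were lost with no filter on low counts, where none of the 10 passed. Flt3 (0.38, adjusted p 0.0793) and Ighm (0.33, adjusted p 0.0813) did not pass. None of the 10 passed for the Id1 label, where 0.0488% of all genes, 7 in number, were called. At an unadjusted p under 0.05 there were 6 genes of the 10 for Tet2 and 4 for Id1, beside 2229 and 1428 of the 14346 genes tested. Dntt was the nearest for Id1 (-0.74 ± 0.088, edgeR adjusted p 0.0881).

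Other transcription factors of early lymphoid cells, a list of 19 that were all tested, had 9 higher and 1 lower in Tet2KO against WT and 9 higher and 4 lower in dKO against Id1KO, with medians of 0.13 and 0.11. Counts in this and the other lists stand beside shares over all genes called of 32.8% in Tet2KO against WT, 19.3% in dKO against Id1KO, 15% in Id1KO against WT and 26.4% in dKO against Tet2KO. Bach2, a repressor that acts in lymphoid cells, rose from 4.56 ± 0.2 CPM in WT to 8.77 ± 0.3 in Tet2KO (log2 0.94 ± 0.1, edgeR adjusted p 8.3e-07) and from 4.22 ± 0.19 in Id1KO to 6.18 ± 0.54 in dKO (log2 0.55 ± 0.11, edgeR adjusted p 0.00143). Runx1, a core factor of blood formation, rose by 0.24 ± 0.03 (edgeR adjusted p 3.02e-06) and 0.32 ± 0.031 (edgeR adjusted p 2.2e-07) in the same comparisons. Myb, a factor of proliferating progenitors and the most abundant of the list, fell by 0.10 ± 0.024 (edgeR adjusted p 0.00194) and by 0.15 ± 0.024 (edgeR adjusted p 0.000131). Irf8, which guides monocyte, dendritic and B cell fates, fell from 341 ± 4.9 CPM in WT to 266 ± 5.7 in Id1KO (log2 -0.36 ± 0.028, edgeR adjusted p 2.27e-08). In Id1KO against WT 1 of the 19 was higher and 3 lower, and in dKO against Tet2KO 1 was higher and 5 lower. The 3 became 1 without Id1KO replicate 1 or WT replicate 1. The count of 1 lower in Tet2KO against WT became 2 without WT replicate 1, Id1KO replicate 3, dKO replicate 1 or dKO replicate 2, and the count of 1 higher in dKO against Tet2KO became 2 without dKO replicate 2.

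Early lymphoid receptors and signalling genes, 13 tested of 16, had 6 higher and 1 lower in Tet2KO against WT. The counts were 2 higher and 2 lower in dKO against Id1KO, 1 and 3 in Id1KO against WT, and 0 and 6 in dKO against Tet2KO. The 6 became 3 without Tet2KO replicate 1, the 1 lower became 2 without Tet2KO replicate 2, and the 1 higher in Id1KO against WT became 0 without Id1KO replicate 2. Bcl2, a survival gene downstream of IL-7, rose from 131 ± 2.7 CPM in WT to 156 ± 6.1 in Tet2KO (log2 0.26 ± 0.037, edgeR adjusted p 2.65e-05). It fell to 116 ± 0.59 CPM in Id1KO (log2 -0.17 ± 0.038, edgeR adjusted p 0.00399), and in dKO it stood at 135 ± 8.4. Cd52, a surface glycoprotein of lymphocytes, fell with either label, from 41.0 ± 1.5 CPM in WT to 33.8 ± 0.2 in Tet2KO (edgeR adjusted p 0.000176), 30.3 ± 0.99 in Id1KO (edgeR adjusted p 3.45e-06) and 25.2 ± 1.4 in dKO.

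Genes of V(D)J recombination and end joining other than the 3 above, 12 of 12 tested, had 1 higher and 1 lower with the Tet2 label on either Id1 background, 0 and 1 in Id1KO against WT and 2 and 0 in dKO against Tet2KO. Xrcc5, the large subunit of the end-binding Ku complex, fell from 26.1 ± 1.3 CPM in WT to 18.6 ± 1.5 in Tet2KO (log2 -0.49 ± 0.07, edgeR adjusted p 2.07e-05) and from 28.2 ± 2.0 in Id1KO to 22.5 ± 1.4 in dKO (log2 -0.32 ± 0.068, edgeR adjusted p 0.00189). Hmgb1, a chromatin protein that helps RAG bend DNA, was the most abundant at 949 to 1030 CPM over the genotype means. Its log2 difference in Tet2KO against WT was -0.08 (edgeR adjusted p 0.0518), and processed copies of it share its sequence. Counts this small moved by 1 gene under single omissions: the gene higher in Tet2KO against WT was lost without Tet2KO replicate 1 or WT replicate 2, and the 2 in dKO against Tet2KO became 1 without Tet2KO replicate 2. The gene lower in Tet2KO against WT was joined by a second without WT replicate 1, Id1KO replicate 2, dKO replicate 1 or dKO replicate 2, and that in dKO against Id1KO without dKO replicate 2. The one lower in Id1KO against WT was lost without Id1KO replicate 1 or WT replicate 3 and became 2 without Id1KO replicate 3.

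Other genes of the Notch pathway, 23 tested of 28, had 6 higher and 2 lower in Tet2KO against WT and 3 higher and 2 lower in dKO against Id1KO, with medians of 0.04 and -0.04. Together 8 and 5 of 23 genes were called, close to the 32.8% and 19.3% over all genes, so the counts are not a result about the pathway. Maml3, a coactivator of the NOTCH transcription complex, rose from 43.2 ± 0.51 CPM in WT to 61.2 ± 3.2 in Tet2KO (log2 0.50 ± 0.054, edgeR adjusted p 5.58e-07) and from 37.8 ± 2.9 in Id1KO to 46.8 ± 2.6 in dKO (log2 0.31 ± 0.057, edgeR adjusted p 0.00062). Spen, a corepressor in the same pathway, rose by 0.43 ± 0.045 (edgeR adjusted p 4.64e-07) and 0.37 ± 0.047 (edgeR adjusted p 9e-06). Notch2, a second receptor, stood at 270 ± 3.8 CPM in WT and 301 ± 2.1 in Tet2KO (log2 0.15 ± 0.026, edgeR adjusted p 9.99e-05). The ligand Jag2 fell from 4.83 ± 0.15 to 2.81 ± 0.63 CPM (log2 -0.79 ± 0.16, edgeR adjusted p 0.000603). In dKO against Tet2KO 1 gene was higher and 7 were lower, which became 4 lower without dKO replicate 3, and the 1 higher became 0 without the same library. In dKO against Id1KO the 2 lower became 1 without Id1KO replicate 1 or dKO replicate 3.

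Markers of more mature cells were read beside these values. B cell genes, 15 tested of 21, had 4 higher and 0 lower in Tet2KO against WT, a share below the 32.8% called over all genes, and summed to 117 to 124 CPM for WT, 131 to 135 for Tet2KO, 116 to 119 for Id1KO and 119 to 122 for dKO. Btk, the most abundant of them, stood at 84.4 ± 2.0 CPM in WT, in a mean sum of 121. Cd79a stood at 0.755 to 1.45 CPM over the genotype means, highest in Tet2KO, and Igkc at 0.571 CPM or less. Cd22, an inhibitory receptor of B cells, rose from 1.29 ± 0.21 to 2.64 ± 0.16 CPM in Tet2KO against WT (log2 1.02 ± 0.19, edgeR adjusted p 0.000316). Cd79b, a signalling chain of the B cell receptor, rose from 21.1 ± 1.1 to 24.9 ± 0.52 CPM (log2 0.23 ± 0.062, edgeR adjusted p 0.0063) and was lower in dKO than in Tet2KO (log2 -0.37 ± 0.064, edgeR adjusted p 0.000258). Plasmacytoid dendritic cell genes, 8 tested of 12, had 5 higher in Tet2KO against WT and 5 higher in dKO against Id1KO with none lower, and summed to 802 to 818 CPM for WT, 916 to 936 for Tet2KO, 694 to 709 for Id1KO and 920 to 935 for dKO. Their defining marker Siglech had 1 to 12 counts per library. Bst2 (edgeR adjusted p 0.809 and 0.0663) and Cox6a2 (0.183 and 0.492) passed in neither Tet2KO against WT nor dKO against Id1KO. Zeb2 and Irf8, the most abundant of the list, stood at 299 ± 3.1 and 341 ± 4.9 CPM in WT, in a mean sum of 813. Erythroid genes, 12 of 12 tested, had 11 lower in Tet2KO against WT and 11 higher in dKO against Tet2KO, and summed to 1440 to 1490 CPM for WT, 878 to 891 for Tet2KO, 1620 to 1660 for Id1KO and 1440 to 1460 for dKO. The 10 lymphoid genes summed to 654 to 669, 746 to 755, 583 to 598 and 685 to 693 CPM in the same order of labels. They were highest in Tet2KO and lowest in Id1KO, where the erythroid sum was lowest and highest. By mean sum, neutrophil granule genes (15700 and 12300 CPM) and stem and multipotent cell genes (940 and 800) were also highest in Tet2KO and lowest in Id1KO. So were the B cell, Notch pathway, lymphoid factor and early lymphoid receptor lists, so this order is not particular to the 10 genes. The V(D)J, plasmacytoid dendritic, monocyte and macrophage, and T and NK lists did not have it. The part of these marker shifts in the results on the 10 genes was not tested.

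Markers of other lineages were mixed. Stem and multipotent cell genes, 11 tested of 12, had 6 higher and 2 lower in Tet2KO against WT and 1 higher and 6 lower in dKO against Tet2KO. Neutrophil granule genes, 10 of 10 tested, had 6 higher and 2 lower in Tet2KO against WT, and the 2 became 1 without Tet2KO replicate 3, WT replicate 1 or WT replicate 2. Monocyte and macrophage genes, 10 of 10 tested, had 4 higher and 2 lower in Tet2KO against WT and 1 higher and 6 lower in Id1KO against WT. The 1 higher became 0 under every single omission except that of dKO replicate 2. T and NK cell genes, 10 tested of 21, had 3 higher in Tet2KO against WT, which became 1 without Tet2KO replicate 2. The most abundant of them, Nkg7, a granule protein of NK and myeloid cells, stood at 140 ± 2.9 CPM in WT and 150 ± 0.89 in Tet2KO (log2 0.10 ± 0.03, edgeR adjusted p 0.0133).

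Genes whose levels over the 12 libraries lay closest to each lymphoid gene were found by the root mean square difference of centred log2 CPM, for the 6 genes called in at least 3 of the 5 pairwise comparisons. Closest to Flt3 were Ly6c2 and Ndrg1, both at 0.069, against a spread of Flt3 about its own mean of 0.251. For Notch1 they were Psap and Plec at 0.047, and for Satb1 Cdk6 at 0.06 and Kmt2c at 0.063. Close to Ighm was Ms4a6c at 0.06, and Ikzf1 lay nearest to Vps8 and Ythdc2 at 0.027 against its own spread of only 0.055. For Dntt they were Zcchc3 at 0.144 and Abcg1 at 0.147 against its own spread of 0.384. Ly6c2 is a monocyte surface antigen and had mean levels of 544 CPM for WT, 772 for Tet2KO, 494 for Id1KO and 624 for dKO. These distances are descriptions over 12 libraries that share 4 genotypes.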

How the data were processed

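RNA was purified with the RNeasy Micro Kit, and libraries came from a stranded, ribosomal-depleted total RNA kit, per the labels' protocols. STAR, RSEM and mm10 are named in the submitters' processing notes, without versions or roles. The deposited table holds expected counts made by the authors: 8.25% of genes have a value that is not whole. Counts were rounded, filtered with filterByExpr (minimum count 10, 14346 genes left), scaled by TMM and fitted over all 12 libraries with 1 mean per genotype by edgeR 4.0.16 (quasi-likelihood F-test, two-sided, Benjamini-Hochberg over all genes tested, threshold 0.05) in R 4.3.3. An exact test of 3 against 3 libraries cannot go below 0.1 and was not used. Intervals are 1.96 SE either side. All 55450 identifiers matched GENCODE M21 (GRCm38), the source of positions and exon lengths. Copies were sought with blast 2.17.0 at 95% identity over 100 bases. Likeness used log2(CPM + 0.1). The 10 genes and the gene lists were chosen with earlier results of these data known.

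Named list genes were the 3 most abundant of each list and, per comparison, the called genes with the largest and smallest log2 change. A few genes that these rules name are not reported here. All 12 within-genotype pairs of libraries differed beyond sampling noise, with a median ratio of 1.18 to 2.1, and were kept apart. This does not show that they came from separate cell samples, since repeats of 1 cell sample can differ in this way too. In simulated data for Tet2KO against WT, edgeR recovered 85% of 200 genes changed 2-fold, with 8 false calls among 14196 genes, and 72% at 1.3-fold. For Id1KO against WT it recovered 87% and 62%. The simulated libraries were drawn independently with only 200 genes changed, so these figures need not hold for the libraries here. Alternatives were RLE and upper-quartile scaling, DESeq2 1.42.0, other filters, only the libraries compared, a replicate block, a threshold of 0.01, and leaving out each library.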

Additional observations from a re-analysis of the deposited data

Results flagged for a closer look

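For 3 genes the change with the Tet2 label differed between the 2 Id1 labels by a test of the difference itself, the interaction in edgeR's quasi-likelihood fit, in which 14.5% of all genes were called. Flt3 had an interaction of -0.30 on the log2 scale (adjusted p 0.000502): it rose by 44.3% without the Id1 label and by 16.8% with it. Ighm had 0.24 (adjusted p 0.00154): it rose by 15.2% and by 35.9%. Ikzf1 had 0.21 (adjusted p 0.000634): it fell by 6.5% and rose by 8.06%. In each case the 3 libraries of one group did not overlap those of the other within either Id1 label. This describes the same values that gave the calls and is no further support for them. All 3 calls held under every alternative run, with the highest adjusted p at 0.0019 for Flt3, 0.00732 for Ighm and 0.00309 for Ikzf1.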

How the results depend on the processing

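Of 1130 recomputed log2 fold changes of the 10 genes, 1103 kept their side of the threshold, 24 lost a call, 3 gained one and none that was called changed sign. Of the 1103, 13 that were never called changed sign. DESeq2 changed 4 calls and use of only the libraries compared changed 1. RLE and upper-quartile scaling and both other filters changed none. The count of 5 genes in Id1KO against WT was 3 at an adjusted p under 0.01, and 3 to 5 with single libraries left out. Other counts under single omissions were 6 to 8 in Tet2KO against WT, 5 in dKO against Id1KO, 5 to 7 in dKO against Tet2KO, 3 to 4 in dKO against WT and 3 to 4 for the interaction. In summed libraries the Tet2 label called 2 of the 10 genes, 4 with RLE scaling and 0 with no filter. Shares over all genes were 1.62%, 3.97% and 0.463%. The Id1 label called 0, and 1 with RLE scaling (Dntt), beside 0.0488% and 0.244% of all genes. A filter set on the summed libraries, chosen after seeing the data, gave 4 and 1, beside 3.54% and 0.237%. The cause of these differences was not tested.

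A fit with a replicate block called the same numbers, 8, 5, 5, 7, 3 and 3, and changed no call of the 10 genes. Deviations from genotype means correlated at -0.097 to 0.113 over 18 pairs of same-numbered libraries of different genotypes. Over 36 pairs with different numbers they correlated at -0.104 to 0.174. By mean correlation 7 of 12 libraries were closest to their own number, so whether the numbers pair the libraries was not settled. At 9 to 62 counts per library, Rag2, Rag1, Il7r and Ebf1 had SEs of 0.17 or more, and the smallest log2 difference called among them was -0.57.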
